A study of Mus musculus with 4 samples.

Results

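Gata3, the gene for the transcription factor GATA3, was followed cell by cell in α-lymphoid progenitors (αLPs) of mouse bone marrow, to ask whether its transcript differed between genotypes in how many cells carried it, in how much a carrying cell held, or in both. It is 1 of 23058 genes listed in both single-cell count tables, and its row of each table was read across the cells. GATA3 is a zinc finger protein that binds GATA motifs and is required for early innate lymphoid progenitors and for group 2 innate lymphoid cells (ILC2s), in which it acts with RORα and BCL11B. ILC2s carry ST2, the IL-33 receptor chain encoded by Il1rl1. Their precursors pass through a stage marked by PLZF, the product of Zbtb16, and gain the co-stimulatory receptor ICOS.

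The study combined hashtag-labelled αLPs of wild-type (WT) and G3SEKO mice in the same BD Rhapsody capture and sequenced them by TAS-Seq, in 2 experiments. The first is labelled C57BL/6, and the label of the second gives no strain. The study's methods name C57BL/6J as the source of the G3SEKO embryos and young adult mice of both sexes for the study as a whole, without an age for each experiment. G3SEKO mice lack tandem super-enhancers downstream of Gata3 after CRISPR-Cas9 deletion in the germline, so the deletion is not limited to 1 cell type, and no treatment is named for either group. Experiment 1 has 3 WT hashtags (A0307, A0308, A0309) and 3 G3SEKO hashtags (A0310, A0311, A0312), and since the methods name more mice than hashtags, the hashtags cannot each mark 1 mouse. Experiment 2 has 1 hashtag a genotype, and its label lists both A0302 and A0303 under WT. A0303 was taken as G3SEKO here, against that label, and the reads of a transcript inside the deleted interval are given for each hashtag set below. The study's methods say that marrow of several mice a genotype was used in each experiment, so that cells of different mice are mixed within a genotype. The cells were counted as reads, not as molecules, so that intervals on counts and shares cover counting error only.

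After the study's limits on reads and mitochondrial share and a limit on Id2, which marks innate lymphoid cells and their progenitors, 681 WT and 43 G3SEKO cells of the 1033 listed remained in experiment 1, and 5130 WT and 1159 G3SEKO cells of the 7630 listed remained in experiment 2. G3SEKO cells were the deeper ones, with a median of 509911 reads per cell against 396198 for WT in experiment 1 and 42814 against 29677 in experiment 2. Any difference in the share of cells with a read was therefore taken at equal depth, with every cell thinned to the read limit of experiment 2, where 1 read is worth 149 counts per 1000000 (CPM). Cells with at least 2 markers of another cell type were 6.61% (WT) and 23.3% (G3SEKO) of those kept in experiment 1 and 3.78% and 13.8% in experiment 2, and the main results are given without them too. The types differed by genotype: in experiment 2, 135 of 194 such WT cells had erythroid markers (Gata3 at 906 CPM) and 40 had LTi/ILC3 markers, against 0 and 112 of 160 such G3SEKO cells (LTi/ILC3 cells with Gata3 at 326 CPM). Of those 135 WT cells, 96 were also Il1rl1+ by the limit given below, with Gata3 at 914 CPM. Leaving out marker-carrying cells thus removed unlike cells from the 2 genotypes.

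Gata3 lies on the minus strand at chr2:9857078-9890034 (GRCm38, GENCODE M21), 455 kb from the deleted interval. A long noncoding RNA, 1700061F12Rik, lies inside that interval at chr2:9189515-9197477 on the plus strand. It was found in too few cells to check the labels cell by cell. In experiment 1 it had 802 reads in 8 of 681 WT cells (1.17%) and 1 read in 1 of 43 G3SEKO cells (2.33%). In experiment 2 it had 155 reads in 14 of 5130 A0302 cells (0.273%) and 1 read in 1 of 1159 A0303 cells (0.0863%). The reads are not molecules and most come from a handful of cells, so that these values do not settle the genotype of A0303. That hashtag was taken as G3SEKO against its label. The windows of 250 bases before the RefSeq starts of both genes (GRCm38.p6, 5′ to 3′ on the gene's own strand) are shown because 1 belongs to the gene described here and the other to the transcript of the deleted interval, with GATA or its reverse TATC in capitals.
Gata3, chr2:9878601-9878850: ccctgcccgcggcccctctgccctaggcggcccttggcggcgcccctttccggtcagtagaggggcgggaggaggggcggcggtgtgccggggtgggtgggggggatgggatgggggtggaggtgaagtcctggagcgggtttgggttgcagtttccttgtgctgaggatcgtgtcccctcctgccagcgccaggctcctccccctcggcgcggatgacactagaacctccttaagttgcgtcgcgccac
1700061F12Rik, chr2:9189265-9189514: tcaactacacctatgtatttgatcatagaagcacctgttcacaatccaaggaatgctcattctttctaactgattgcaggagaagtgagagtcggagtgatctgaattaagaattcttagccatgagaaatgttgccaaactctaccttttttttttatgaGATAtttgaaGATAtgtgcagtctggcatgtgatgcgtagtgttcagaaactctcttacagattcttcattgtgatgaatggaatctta
The Gata3 window is 70% G or C and holds 0 GATA or TATC, and that of 1700061F12Rik is 36.8% G or C and holds 2. Of 32851 RefSeq promoter windows of this length, 53.6% hold GATA or TATC on either strand. A missing motif says only that these letters are not in this window.

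Genes that overlap Gata3 had few reads beside it. The antisense transcript Gm13256 had 98 WT and 2 G3SEKO reads in experiment 1, where Gata3 had 414288 and 18864. In experiment 2, 4930412O13Rik had 656 WT and 2 G3SEKO reads, 9230102O04Rik had 146 and 0, and Gata3 had 210185 and 27800. The labels used here do not say whether counting used the strand. The next gene beside Gata3, Taf3, which encodes a TFIID subunit, was at 63.2 (WT) and 104 CPM (G3SEKO) in experiment 1 and 62.3 and 54.2 CPM in experiment 2. Atp5c1, an ATP synthase subunit farther along, stood at 196 and 199 CPM and at 185 and 209 CPM.

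Gata3 was lower in G3SEKO than in WT αLPs in both experiments. Over the summed reads, WT αLPs had 1187 CPM against 608 CPM for G3SEKO in experiment 1, and 999.6 against 419 CPM in experiment 2, so that G3SEKO held 0.512 and 0.419 of the WT level. The 3 WT hashtags of experiment 1 stood at 1193, 1226 and 1136 CPM and the 3 G3SEKO hashtags at 659, 637 and 513 CPM. The groups did not overlap, with means of 1185 ± 45.6 CPM and 603 ± 78.5 CPM (SD, n = 3 hashtags each, exact two-sided permutation test, p = 0.1, the smallest this design allows). In edgeR's quasi-likelihood test over 4 sums, 1 per genotype and experiment, with the experiment as a block, the log2 change was −1.13 ± 0.17 (SE, adjusted p = 0.356), and 0 of 21303 genes passed (0% called, against 1589 at an unadjusted p under 0.05). DESeq2 called Gata3 in the same sums (−1.10, adjusted p = 0.000323) among 992 genes, and edgeR on cells thinned to equal depth called it too (−1.25, adjusted p = 1.63e-10), so that the call differed between these fits. The thinned fit tested 13996 genes, and depth and the genes tested changed together in it. Without the cells carrying markers of other types the edgeR change was −1.03 ± 0.18 (adjusted p = 0.503). In sums of cells, fewer Gata3-rich cells and less Gata3 in each cell cannot be told apart, and the next comparisons take them one at a time.

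At equal depth, G3SEKO cells differed from WT cells both in the share with a Gata3 read and in the number of reads among positive cells. In experiment 1, 88.3% of WT cells had a read (exact 95% interval 85.6 to 90.6) against 69.8% of G3SEKO cells (53.9 to 82.8). In experiment 2 the shares were 78.0% (76.8 to 79.1) and 53.2% (50.3 to 56.1). Positive cells held a mean of 9.21 reads (WT) against 6.4 (G3SEKO) in experiment 1, and 8.68 against 4.99 in experiment 2. The mean over all cells is the share times the level of positive cells, so that its log2 ratio splits into 2 parts. The share gave 39.3% of that ratio in experiment 1 and 40.8% in experiment 2, and the level of positive cells gave the rest.

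**Figure D1:**
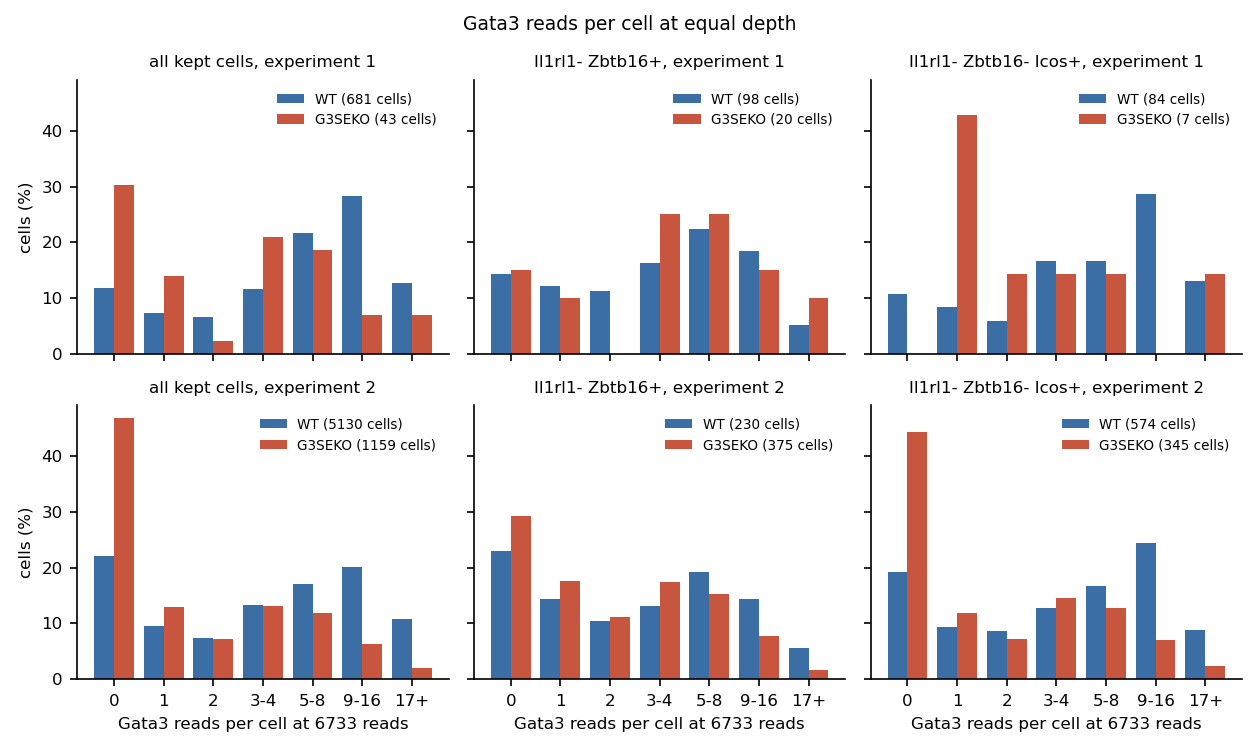
Share of cells (%) by the number of Gata3 reads per cell after thinning each cell to the read limit of experiment 2, for WT and G3SEKO cells of both experiments, over all kept cells, Il1rl1- Zbtb16+ cells and Il1rl1- Zbtb16- Icos+ cells. Over all kept cells of experiment 2, 46.8% of G3SEKO and 22.0% of WT cells had 0 reads, and 2.07% and 10.7% had 17 or more.

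Where the line between negative and positive was drawn decided how the genotype difference split. At full depth, 678 of 681 WT cells and 43 of 43 G3SEKO cells of experiment 1 had a read, so that the share gave −0.727% of the log2 ratio, against its direction, and the level of positive cells differed by −0.88 on the log2 scale. Thinned only to the read limit of experiment 1, where 1 read is worth 12.05 CPM, 97.5% of WT and 97.7% of G3SEKO cells of experiment 1 were positive. At full depth in experiment 2 the shares were 87.3% and 71.3%, and the share gave 21.6%. With at least 2 reads at equal depth as the line, the share gave 59.7% and 54.6%. With the ln value of 1 used for the gates as the line (172 CPM) it gave 36.7% and 48.2%. The level of positive cells was lower in G3SEKO cells under each of these lines, at 0.478 to 0.779 of the WT level. Without the cells carrying markers of other types the share gave 22.5% in experiment 1 and 38.1% in experiment 2. With no limit on Id2 it gave 55.0% and 45.6%.

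**Figure D2:**
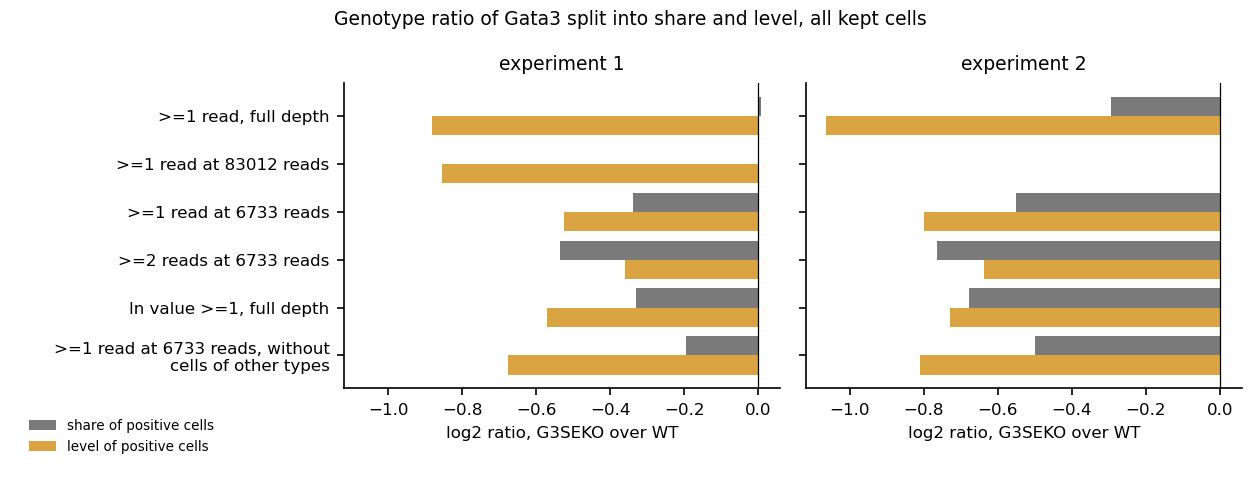
Log2 ratio of G3SEKO over WT of the share of positive cells (grey) and of the Gata3 level of positive cells (yellow), over all kept cells, for 5 ways to call a cell positive, the last pair of bars repeating 1 read at equal depth without the cells carrying markers of other types; thinning to the read limit of experiment 1 applies to experiment 1 only. The level bars lie below 0 throughout, while the share bar is near 0 at the depth of experiment 1 and is the longer bar where at least 2 reads were asked for.

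The read alone did not mark a Gata3-expressing cell at the depth of experiment 1. All 9 cells of that experiment with at least 2 B lineage or at least 2 myeloid markers and Id2 below its limit had Gata3 reads, at 4.16 to 24.4 CPM (median 480307 reads per cell), and 1 of 9 had a read at equal depth. Set against the highest of these, 37 of 681 WT cells (5.43%, 3.85 to 7.41) and 6 of 43 G3SEKO cells (14.0%, 5.30 to 27.9) were at or below background. Above it, the median WT cell had 1094 CPM and the median G3SEKO cell 635 CPM, a ratio of 0.581. Without cells carrying markers of other types, 25 of 636 WT and 2 of 33 G3SEKO cells were at or below background. This line was chosen after the values were seen, and experiment 2 had only 2 such background cells, at 4.35 and 5.41 CPM.

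The upper part of the distribution was lower in G3SEKO as well. Among all kept cells of experiment 1, Gata3 at the 25th percentile was 501 CPM in WT and 86.3 CPM in G3SEKO. The median was 1037 and 492 CPM, and the 90th percentile was 2501 and 1286 CPM. In experiment 2, the cell at the 25th percentile had 155 and 0 CPM, the median cell 672 and 131 CPM, and the cell at the 90th percentile 2444 and 1137 CPM. The ratio thus came to 0.514 and 0.465 at the 90th percentile and to 0.475 and 0.195 at the median. At equal depth 3 of 43 and 19 of 1159 G3SEKO cells (6.98% and 1.64%) exceeded the 90th percentile of WT cells, beside 8.96% and 9.28% of WT cells.

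The cells were then sorted into 5 exclusive gates by Il1rl1, Zbtb16 and Icos at ln(1 + reads per 10000) of at least 1. The genotypes filled these gates unequally. Il1rl1+ cells, which carry the transcript of ST2, were 62.3% (WT) and 4.65% (G3SEKO) of kept cells in experiment 1 and 69.2% and 4.31% in experiment 2. With WT levels per gate but the gate shares of G3SEKO cells, the mean at equal depth fell from 8.13 to 6.20 reads in experiment 1 and from 6.76 to 6.17 reads in experiment 2. The remaining step, to 4.47 and 2.65 reads, lay within gates. By this reckoning the gate shares held 45.3% of the log2 ratio in experiment 1 and 9.89% in experiment 2. These percentages hold only for this order, in which the gate shares were changed first, at WT levels. Il1rl1+ cells held a mean of 9.14 and 6.93 reads in WT but 1.5 (2 cells) and 1.62 reads in G3SEKO. With G3SEKO levels at the gate shares of WT cells the split would therefore differ, and that order was not taken.

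In WT cells the summed Gata3 level was lowest in the Zbtb16+ gates, and no gate was without it. Il1rl1- Zbtb16+ Icos+ cells stood at 734 and 737 CPM in experiments 1 and 2 (34 and 102 cells). Il1rl1- Zbtb16+ Icos- cells stood at 877 and 788 CPM (64 and 128 cells). The cells with none of the 3 markers stood at 909 and 898 CPM (75 and 778 cells), Il1rl1- Zbtb16- Icos+ cells at 1161 and 994 CPM (84 and 574 cells), and Il1rl1+ cells at 1387 and 1039 CPM (424 and 3548 cells). This order of summed reads was the same in both experiments. At equal depth it was not: in experiment 2, Il1rl1- Zbtb16- Icos+ cells (1037 CPM) stood above Il1rl1+ cells (1029 CPM) and Zbtb16+ Icos+ cells (770.3 CPM) above Zbtb16+ Icos- cells (760.02 CPM). By the median cell, WT cells with none of the 3 markers (675 and 452 CPM) stood below Zbtb16+ Icos- cells (749 and 564 CPM), and they had the lowest share with a read at equal depth of the 5 gates (66.7% and 67.9%). Against Il1rl1- Zbtb16+ Icos- cells, edgeR gave log2 changes of −0.18 ± 0.10 for Il1rl1- Zbtb16+ Icos+ cells (adjusted p = 0.666), 0.39 ± 0.10 for Il1rl1- Zbtb16- Icos+ cells (adjusted p = 0.204) and 0.58 ± 0.10 for Il1rl1+ cells (adjusted p = 0.0563). None of the 3 passed, in a fit that called 0.00518%, 0.186% and 2.05% of 19323 genes, and neighbouring gates were not shown to differ. DESeq2 called the last of these changes (adjusted p = 0.00678).

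Zbtb16+ and Il1rl1+ WT cells were also set side by side for share and level. At equal depth, 85.7% of Il1rl1- Zbtb16+ and 92.5% of Il1rl1+ WT cells of experiment 1 had a read (77.2 to 92.0 and 89.5 to 94.8), and 77.0% and 79.8% did in experiment 2 (71.0 to 82.2 and 78.4 to 81.1). Positive cells held 6.13 and 9.89 reads in experiment 1 and 6.69 and 8.69 reads in experiment 2. Single Il1rl1+ WT cells of experiment 1 ran from 225 CPM at the 10th percentile through 1237 CPM at the median to 2554 CPM at the 90th, and 12 of 424 lay at or below the background of 24.4 CPM.

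**Figure D3:**
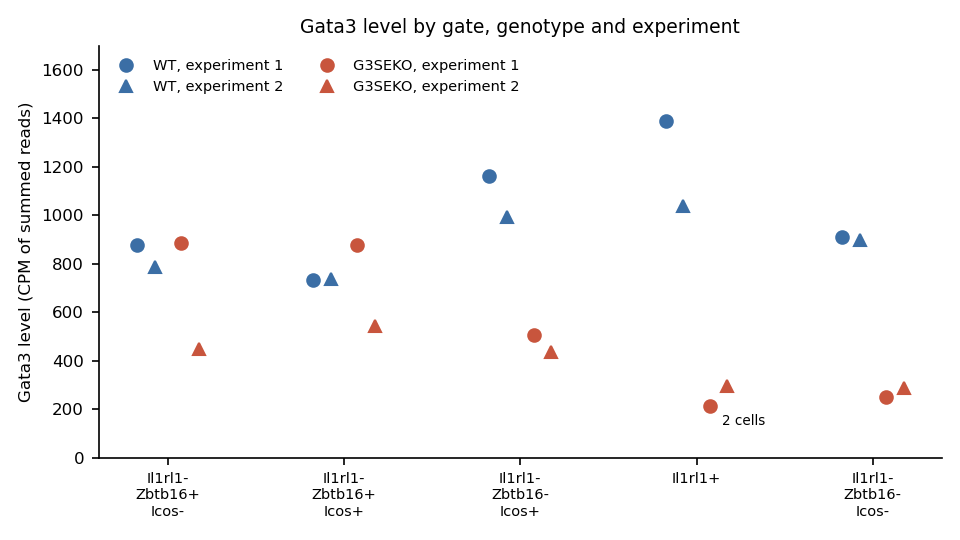
Gata3 level (CPM of summed reads) in the 5 gates for WT and G3SEKO cells, with 1 point per genotype and experiment; the G3SEKO point of experiment 1 in the Il1rl1+ gate is 2 cells. WT points are lowest in the Il1rl1- Zbtb16+ Icos+ gate (734 and 737 CPM) and highest in Il1rl1+ cells (1387 and 1039 CPM). G3SEKO points lie below WT in every gate of experiment 2. In experiment 1 they lie above WT in the Zbtb16+ Icos+ gate (876 against 734 CPM) and the Zbtb16+ Icos- gate (886 against 877 CPM).

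Outside the Zbtb16+ gates the G3SEKO level was lower in both experiments. Il1rl1- Zbtb16- Icos+ G3SEKO cells stood at 507 and 438 CPM (7 and 345 cells), against the 1161 and 994 CPM of WT cells (edgeR log2 change −1.15 ± 0.21, adjusted p = 0.9997, 0% or 0 of 16571 genes called and 327 at an unadjusted p under 0.05). With DESeq2 55 genes passed in this gate, without Gata3 (adjusted p = 0.471), while edgeR called Gata3 with no filter (adjusted p = 0.0116) and in thinned cells (adjusted p = 0.000906). LTi/ILC3 marker reads summed to 1294 CPM in G3SEKO against 144 CPM in WT cells of this gate in experiment 1 and to 471 against 104 CPM in experiment 2, with reads of 4 of 5 markers in each sum. NK/ILC1 markers summed to 31.7 (G3SEKO) against 170.0 CPM (WT) in experiment 1 and to 172 against 15.2 CPM in experiment 2, with reads of 5 of 5, and the part of neither list in the result was tested. Without the marker-carrying cells the log2 ratio of Gata3 in this gate was −0.71 in experiment 1, with 6 G3SEKO cells, and −1.12 in experiment 2. G3SEKO cells with none of the 3 markers stood at 248 and 289 CPM (14 and 389 cells) against 909 and 898 CPM in WT (−1.68 ± 0.30, adjusted p = 0.784, with 5 of 16003 genes, 0.0312%, called, and DESeq2 adjusted p = 0.0248). Among these cells, 6 of 14 G3SEKO and 18 of 75 WT cells of experiment 1 (42.9% and 24%) and 87 of 389 and 58 of 778 of experiment 2 (22.4% and 7.46%) carried markers of another type. In experiment 2, LTi/ILC3 markers summed to 662 CPM in G3SEKO against 203 CPM for WT (4 of 5 markers with reads in each) and NK/ILC1 markers to 304 against 46.3 CPM (5 of 5), and their part in the result was not tested. Without the marker-carrying cells the log2 ratio of Gata3 was −1.55 and −1.53 (edgeR −1.52 ± 0.34, adjusted p = 1.0). The few G3SEKO cells in the Il1rl1+ gate stood at 211 CPM (2 cells) and 294 CPM (50 cells) against 1387 and 1039 CPM in WT. Of those 2 cells, 1 carried NK/ILC1 markers and had Gata3 at 15.2 CPM, and the other had 631 CPM. In experiment 2, LTi/ILC3 markers summed to 299 CPM in the G3SEKO cells of this gate against 26.1 CPM for WT (4 of 5 markers with reads in each) and NK/ILC1 markers to 43.3 against 2.401 CPM (5 of 5), and their part in the result was not tested. The genotype change within this gate was not tested, because a least of 5 cells a sum was set for that fit.

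In the Zbtb16+ gates the sign of the difference was not the same in both experiments. Il1rl1- Zbtb16+ Icos+ G3SEKO cells stood at 876 and 544 CPM (9 and 162 cells) against 734 and 737 CPM in WT (−0.04 ± 0.27, adjusted p = 0.999, 0 of 14421 genes called, 181 unadjusted, 24 by DESeq2). In cells thinned to equal depth the change of this gate was −0.48 ± 0.33 (adjusted p = 0.9998). Il1rl1- Zbtb16+ Icos- G3SEKO cells stood at 886 and 449 CPM (11 and 213 cells) against 877 and 788 CPM (−0.33 ± 0.29, adjusted p = 1.0, 0 of 14653 genes called, 253 unadjusted, 20 by DESeq2). Over both gates together, which were joined after the values were seen, the level was 881 against 829 CPM in experiment 1 and 494 against 761 CPM in experiment 2 (−0.23 ± 0.22, adjusted p = 1.0, 0 of 16604 genes called, 294 unadjusted, 20 by DESeq2). NK/ILC1 markers of the joined gates summed to 252 (WT) and 59.6 CPM (G3SEKO) in experiment 1 and to 82.1 and 98.0 CPM in experiment 2. LTi/ILC3 markers summed to 271 and 250 CPM and to 377 and 373 CPM. The proliferation genes Mki67 and Top2a summed to 39.2 and 21.3 CPM and to 9.59 and 72.5 CPM. Their part in the result was not tested. By hashtag the Zbtb16+ cells of experiment 1 overlapped, with WT at 828 ± 212 CPM and G3SEKO at 1078 ± 486 CPM (SD, n = 3 each, exact two-sided permutation test, p = 0.7), and 1 of the G3SEKO hashtags rests on 2 cells. Without the marker-carrying cells the log2 ratio of these joined gates was −0.15 in experiment 1, with 18 G3SEKO cells, and −0.68 in experiment 2. That of the Zbtb16+ Icos+ gate was 0.20 and −0.47, and that of the Zbtb16+ Icos- gate was −0.42 and −0.91. In experiment 1, 2 of the 11 G3SEKO cells of the Icos- gate carried LTi/ILC3 markers, with Gata3 at 2521 CPM. At equal depth the joined gates gave 0.35 and −0.69.

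At equal depth, the intervals on the share of positive cells in the joined Zbtb16+ gates overlapped between genotypes. The share was 85.7% in WT (77.2 to 92.0) and 85.0% in G3SEKO cells (62.1 to 96.8) in experiment 1, and 77.0% (71.0 to 82.2) and 70.7% (65.8 to 75.2) in experiment 2. Positive cells held 6.13 and 7.88 reads in experiment 1 and 6.69 and 4.51 reads in experiment 2. Of the log2 ratio, −3.45% came from the share in experiment 1 and 17.8% in experiment 2. In Il1rl1- Zbtb16- Icos+ cells of experiment 2 the share was 80.8% in WT (77.4 to 84.0) and 55.7% in G3SEKO (50.2 to 61.0), and it gave 42.7%. In experiment 1 the shares of this gate stood the other way round, with overlapping intervals: 89.3% of WT (80.6 to 94.98) and 7 of 7 G3SEKO cells (100%, 59.0 to 100) had a read, and the share gave −25.6%. In cells with none of the 3 markers of experiment 2 the shares were 67.9% (64.5 to 71.1) and 35.5% (30.7 to 40.5), and the share gave 57.3%, against 40.7% in experiment 1.

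**Figure D4:**
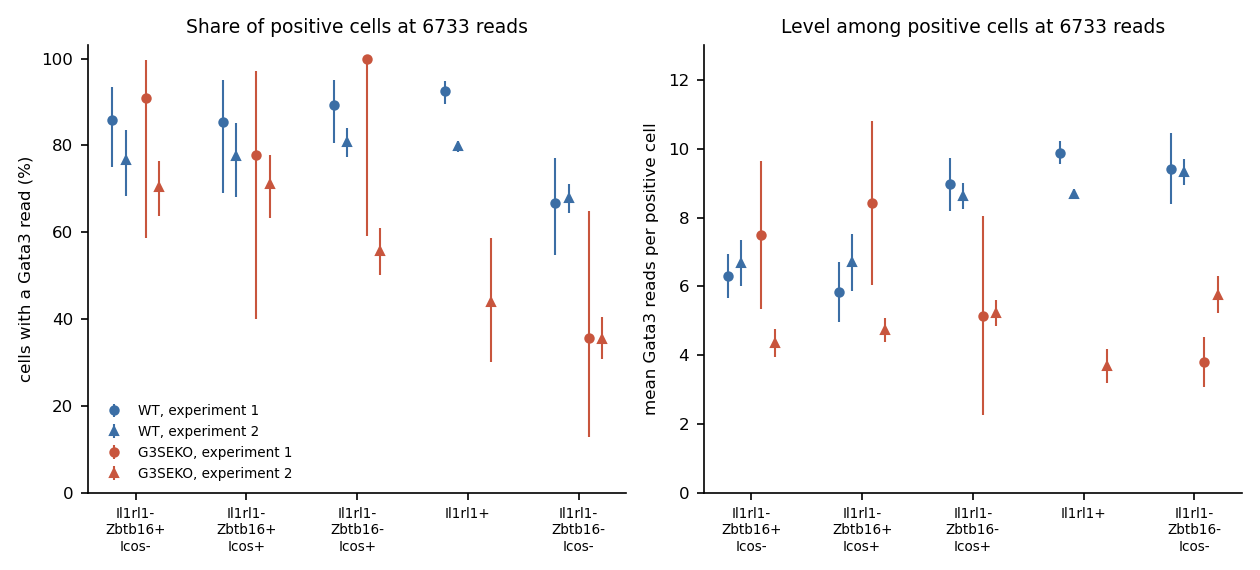
Left, cells with a Gata3 read (%) at equal depth with exact 95% binomial intervals; right, mean Gata3 reads of positive cells with the standard error over cells; WT and G3SEKO, both experiments, 5 gates, sums of under 5 cells left out. In experiment 2 the G3SEKO share is 70.4% and 71.0% in the Zbtb16+ gates and 35.5% to 55.7% in the 3 others, and G3SEKO positive cells hold fewer reads than WT ones in each gate.

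Whether the genotype change differed between gates was tested directly. Il1rl1+ against joined Zbtb16+ cells gave a difference of −1.98 ± 0.44 in log2 change (edgeR, adjusted p = 0.974, 0 of 17933 genes called and 384 unadjusted, 60 by DESeq2), which rests on the sum of those 2 cells, since no least number of cells was set for this fit, and in which the median of all genes was −1.17. Il1rl1- Zbtb16- Icos+ against Zbtb16+ cells gave −0.92 ± 0.30 (adjusted p = 1.0, 0 of 18237 genes called and 278 unadjusted, 21 by DESeq2). A wider set of Zbtb16- cells with Il1rl1 or Icos, added after the values were seen, held 482 WT and 9 G3SEKO cells (experiment 1) and 3974 and 383 (experiment 2). Its Gata3 fell from 1354 to 452 CPM and from 1035 to 419 CPM (−1.46 ± 0.20, edgeR adjusted p = 0.0386, among 31 of 20361 genes, 0.152%). That call was lost in 6 of the other fits and kept with no filter (adjusted p = 0.00011), in thinned cells (adjusted p = 1.59e-06) and without the marker-carrying cells (−1.10 ± 0.21, adjusted p = 0.00294), and the median of all genes tested was −0.36 with all cells of the set and −0.48 without those cells. Its change against that of Zbtb16+ cells differed by −1.18 ± 0.31 (adjusted p = 1.0, 0 of 18522 genes called and 533 unadjusted, 102 by DESeq2). None of these differences passed, and each was smaller without the marker-carrying cells, at −1.16 ± 0.64 (1 G3SEKO Il1rl1+ cell left in experiment 1), −0.52 ± 0.30 and −0.66 ± 0.30. At gate limit 2 the last pair came to −0.55 ± 0.29 and −0.62 ± 0.31.

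Other members of the GATA family were near 0 in both genotypes. Gata1, Gata2, Gata4, Gata5 and Gata6 and the cofactor Zfpm2 stood at 0 to 6.09 CPM in all kept cells of either genotype. Lmo4, a LIM-only adaptor protein of LDB1 complexes, was at 1694 (WT) and 2905 CPM (G3SEKO) in experiment 1 and 771 and 2230 CPM in experiment 2. Ldb1 itself stood at 373 and 351 CPM and at 345 and 373 CPM. Of the candidate inputs to Gata3, Gfi1, a zinc finger repressor active in ILC2s, stood at 64.3 and 6.70 CPM and at 94.5 and 15.96 CPM. Tcf7, which encodes TCF-1 and is high in precursors, stood at 457 and 1098 CPM and at 183 and 1022 CPM. These values were taken over unequal gates. The edgeR test over all kept cells called 0 of 21303 genes, so that it tells nothing about these genes in particular.

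Within one genotype and gate, cells with many and few Gata3 reads were compared. WT Il1rl1+ cells were thinned within each experiment, ranked by Gata3 reads and cut into 3 equal parts. Since the rank uses Gata3, its own difference is a description. In experiment 1 the Gata3-low cells (141) stood at 425 CPM and the Gata3-high cells (141) at 2458 CPM, 5.79 times as much, and in experiment 2 (1182 cells each) at 80.7 and 2283 CPM. Genes detected per cell were close, at medians of 3222 and 3387 and of 1187 and 1288. The rank rests on the reads of single cells, so that counting error widens this range. In experiment 2 the Gata3-low cells held 0 to 2 Gata3 reads (mean 0.543) and the Gata3-high cells 8 to 78. How far the cells differed beyond counting error was not measured. Between these parts 0 of 14533 genes passed (edgeR, 416 or 2.86% at an unadjusted p under 0.05, DESeq2 0 and 497). That does not show that no gene follows Gata3.

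Il1rl1 did not pass the test among these cells. It stood at 1188 CPM in Gata3-low and 1207 CPM in Gata3-high cells of experiment 1, against 1526 and 1455 CPM for experiment 2 (log2 change −0.05 ± 0.06, edgeR adjusted p = 0.991). The cells were chosen for Il1rl1, which narrows its range. Icos stood at 708 and 965 CPM and at 610.5 and 704 CPM (0.30 ± 0.09, adjusted p = 0.989). The ILC2 genes Il2ra (−0.01 ± 0.09), Il17rb (0.06 ± 0.11), Il7r (0.01 ± 0.06) and Bcl11b (0.01 ± 0.12) lay near 0. Rora, which encodes the ILC2 factor RORα, stood at 532 and 642 CPM and at 475 and 545 CPM (0.21 ± 0.09, adjusted p = 0.989). Of 23 ILC2 genes tested 0 passed, with 9 higher and 5 lower in Gata3-high cells of both experiments, beside 26.0% and 25.03% of all genes. Of 13 ILC precursor genes 0 passed (4 higher and 1 lower in both), of 6 GATA family members and cofactors 0 (3 and 1), and of 11 candidate inputs 0 (5 and 3).

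**Figure D5:**
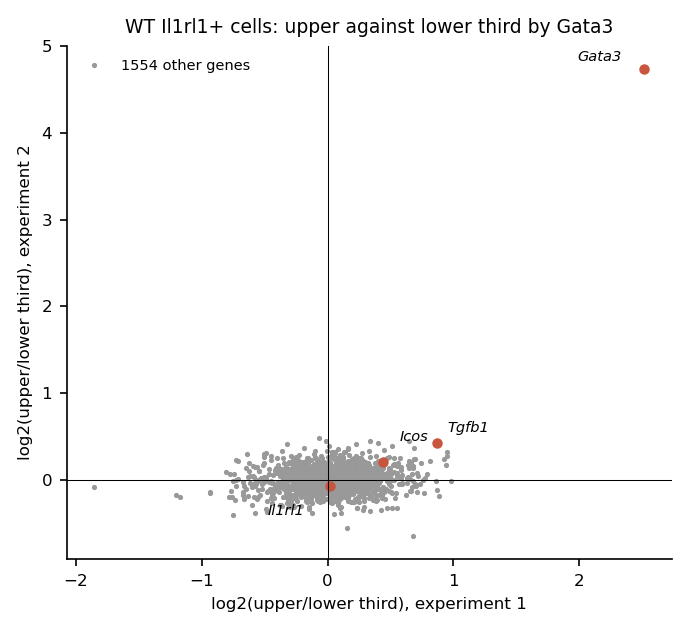
Log2 ratio of Gata3-high over Gata3-low WT Il1rl1+ cells for 1554 genes with reads in at least 20% of cells in both experiments (grey), experiment 1 against experiment 2, with 5 CPM added; Gata3, which set the rank, Il1rl1, Icos and Tgfb1 are named. Gata3 lies at 2.52 and 4.74, while the other genes lie between −1.86 and 0.98 in experiment 1 and between −0.65 and 0.48 in experiment 2.

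The genes most correlated with Gata3 over single WT Il1rl1+ cells were only weakly so. Spearman's rho over 1554 genes ran from −0.23 to 0.21 in experiment 1 (424 cells) and from −0.054 to 0.080 in experiment 2 (3548 cells), as a description over cells that share a library. Gata3's rho with the number of genes detected was 0.117 and 0.138. Taking the lower of both experiments, Tgfb1, the gene for the cytokine TGF-β1, came first (rho 0.144 and 0.0741), with 110 and 206 CPM in Gata3-low and Gata3-high cells in experiment 1 and 127 and 173 CPM in experiment 2 (0.65 ± 0.18, edgeR adjusted p = 0.989). Wnk1, Sema4a, Rora, Cdkn1b, Rhoa, Septin11, Man2b1, Rasal3 and Syf2 came next. By summed reads Septin11 did not keep its direction, with 262 CPM in Gata3-low and 205 CPM in Gata3-high cells of experiment 1 and 176 and 202 CPM in experiment 2. The lowest were Rps23, Gm11263, Rpl13, Gm8623, Rps6-ps4, Gm13341, Gm13370, Rps24, Arl6ip5 and Gm15500, among them ribosomal protein genes and pseudogenes whose reads can be shared with their parent genes. Arl6ip5 stood at 144 and 84.0 CPM and at 118 and 87.9 CPM (−0.63 ± 0.20, adjusted p = 0.989).

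Among WT Il1rl1- Zbtb16+ precursors the Gata3-low and Gata3-high parts held 32 cells each in experiment 1 and 76 in experiment 2, and 1 of 10587 genes passed (0.00945%). That gene was Igf2 (edgeR adjusted p = 0.000955), and its 2285 reads in Gata3-high cells of experiment 1 came from 3 of 32 cells, with 53.0% from 1 cell, and its 37 reads in experiment 2 came from 1 cell. Bcl11b, the gene for a factor of ILC2 commitment, was 1.09 ± 0.27 higher on the log2 scale in Gata3-high cells (1.17 and 0.94 in the experiments, adjusted p = 0.999). Lmo4 stood at 2753 and 4611 CPM and at 2200 and 2835 CPM (0.56 ± 0.12, adjusted p = 0.999), and Trbc1, a T cell receptor β constant gene, at 1938 and 3501 CPM and at 1582 and 2376 CPM (0.73 ± 0.12, adjusted p = 0.711). Zbtb16 itself, on which the cells were gated, differed by 0.56 ± 0.17 (adjusted p = 0.999). Markers of other cell types were also compared across this rank. The median log2 change was −2.31 for the 3 of 5 NK/ILC1 markers tested, −0.43 for 3 of 5 LTi/ILC3 markers, −3.49 for both proliferation genes and −4.49 for the only T lineage marker tested, Cd3g. Klrd1, an NK cell receptor gene, stood at 195 CPM in Gata3-low and 40.7 CPM in Gata3-high cells of experiment 1 and at 1.955 and 0 CPM in experiment 2, and Mki67 at 82.5 and 0.753 CPM and at 9.78 and 0 CPM. The values of these 2 genes in experiment 2 rest on few reads, since 1 read is 1.955 CPM there. Of these markers 0 passed the test, and their part in the other changes was not tested. None of the lists had a member that passed, and 6 of 18 ILC2 genes were higher and 6 lower in Gata3-high cells of both experiments, as were 6 and 3 of 13 ILC precursor genes, beside 24.1% and 25.2% of all genes.

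In G3SEKO cells, of which too few were Il1rl1+ to rank, rho was taken over the 1109 Il1rl1- cells of experiment 2. Unlike the WT ranks, these cells pool several gates. Gata3 stood at 494 CPM in their Zbtb16+ cells, 438 CPM in Zbtb16- Icos+ cells and 289 CPM in cells with none of the markers. Genes that differ between gates, such as Zbtb16, can therefore correlate with Gata3 here. The part of the gates was not tested. Trbc1 (0.281), Rora (0.2496), Tox2 (0.247), Pdcd1 (0.232), Lmo4 (0.226) and Zbtb16 (0.222) are named from the lists after their values were seen, out of a range from −0.223 to 0.281, beside a rho of 0.263 between Gata3 and the number of genes detected. Over 15 sums of at least 20 cells, by genotype, experiment and gate, the genes whose levels were most like those of Gata3 were Rps19 (Pearson's r = 0.91), Rps19-ps6 (0.90), Rps13 (0.90), Rps7 (0.90) and Rps16-ps2 (0.90) among 9773 genes, given as a description over sums that share libraries.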

How the data were processed

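Hashtagged αLPs of both genotypes were pooled per experiment. Per the submitters' processing notes, Bowtie2, Seurat 4 and the build GRCm38 (mm10) were used, and the deposited counts are read counts per gene and cell, made by the authors with no molecular identifiers and not normalized. Genotypes came from the hashtag prefix of each cell's column, and a call rebuilt from the deposited hashtag counts gave every kept cell the same genotype. The rebuilt call also gave a genotype to further cells. With it, experiment 2 held 5133 WT and 1221 G3SEKO cells in place of 5130 and 1159. In all, 102 columns marked as doublets or as not detected were left out, and no other doublet caller was run. 11 barcode numbers occur in both experiments, which were separate captures.

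Cells at or above the study's read limit of each experiment, with at most 10% mitochondrial reads and an Id2 value ln(1 + reads per 10000) of at least 1 were kept. Cells were not treated as replicates: reads were summed per genotype and experiment, with at least 5 cells a sum for each genotype change but no such minimum for the difference between Il1rl1+ and Zbtb16+ cells, and tested with edgeR 4.0.16 (R 4.3.3, TMM, filterByExpr, quasi-likelihood test, Benjamini-Hochberg adjustment over all genes tested, threshold 0.05) with the experiment as a block, since both genotypes shared each capture. DESeq2 1.42.0 was the alternative tool. An unadjusted p is counted only to describe a fit. The block is a true pairing by capture, so the fit without it is the alternative. Hashtags were compared by an exact permutation test, and cannot each mark 1 mouse, since the methods name more mice than hashtags, so that p-values may measure technical spread. Scripts were tested on simulated data. The genes named are Gata3, the gate genes, members of fixed lists, the genes called, the 10 with the highest and lowest rho in both experiments and the most alike over sums; Bcl11b, Lmo4 and Trbc1 in precursors were picked from these after their values were seen. The cells, gates and gene lists were chosen with earlier results of these data known. The joined Zbtb16+ gates, the wider Zbtb16- set, the Zbtb16- Icos+ gate in the test between gates, the weighting by gate shares, the ln limit for Gata3 itself, the ranks within groups of like gene number, the line set by background cells and the repeats without cells carrying markers of other types were added after seeing the data.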

Additional observations from a re-analysis of the deposited data

Results flagged for a closer look

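The Gata3 change between genotypes, over summed reads, pointed opposite ways in the experiments within the Zbtb16+ gates. In Il1rl1- Zbtb16+ Icos+ cells the log2 ratio of G3SEKO over WT was 0.26 in experiment 1 and −0.44 in experiment 2, in Il1rl1- Zbtb16+ Icos- cells it was 0.015 and −0.81, and over both gates it was 0.088 and −0.62. The difference between experiments was not tested. The G3SEKO sums of experiment 1 hold 9 and 11 cells. Without cells carrying at least 2 markers of another cell type, the Il1rl1- Zbtb16+ Icos- ratio of experiment 1 was −0.42, with 9 cells, that of the Il1rl1- Zbtb16+ Icos+ gate was 0.20, with 9 cells, and that of both gates was −0.15 in experiment 1 and −0.68 in experiment 2. By the mean of cell CPM, the Il1rl1- Zbtb16+ Icos+ ratio was −0.069 in experiment 1 and −0.55 in experiment 2, while in experiment 1 that of the Il1rl1- Zbtb16+ Icos- gate was 0.16 and that of both gates 0.053. At equal depth, the ratios of experiment 1 were 0.40 (Icos+), 0.33 (Icos-) and 0.35 (both gates), beside −0.63, −0.74 and −0.69 in experiment 2.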

How the results depend on the processing

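Of 323 values under alternatives, 255 kept their direction and call or moved by less than their spread, 37 moved, 14 changed sign, 11 became called and 6 lost a call; unless a value here shows it, the cause was not tested. The experiment is the block, and both genotypes shared each capture, which is where the pairing comes from; with no replicate block all kept cells gave −1.09 ± 0.32 (adjusted p = 0.766), Il1rl1- Zbtb16+ Icos+ cells 0.029, the wider Zbtb16- set −1.46 without the call, and Gata3 followers in Zbtb16+ cells numbered 0. Over all kept cells Gata3 was called by DESeq2 (−1.10) and in thinned cells (−1.25). Holding the gate shares at those of G3SEKO cells gave −0.84, the mean of −0.47 in experiment 1 and −1.22 in experiment 2. In Il1rl1- Zbtb16- Icos+ cells it was called with no filter (−1.17) and in thinned cells (−1.10), and the mean of cell CPM gave −0.82, from −0.38 in experiment 1 and −1.25 in experiment 2. In cells with none of the 3 markers it was called by DESeq2 (−1.61), with no filter (−1.71) and thinned (−1.84). The wider set lost its call by DESeq2 (−1.36), with no Id2 limit (−1.47), with rebuilt hashtags (−1.45), at gate limit 2 (−1.01) and at 2 times the read limit (−1.45), and its mean of cell CPM gave −1.05.

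With 1 experiment left out, each genotype has 1 sum a gate, and the ratio of these sums has no test. Over summed reads the values ran from −1.20 to −1.18 in Il1rl1- Zbtb16- Icos+ cells, −1.87 to −1.64 in cells with none of the markers, −0.44 to 0.26 in Zbtb16+ Icos+ and −0.81 to 0.015 in Zbtb16+ Icos- cells. In WT gates, Zbtb16+ Icos+ against Zbtb16+ Icos- cells gave 0.0039 with no Id2 limit and 0.20 at gate limit 2, Zbtb16- Icos+ cells were called when thinned (0.56), and Il1rl1+ cells by DESeq2 (0.53), with no Id2 limit (0.75) and thinned (0.64).

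Shares and positive levels of WT cells in experiment 1 were 99.6% and 1236 CPM with no thinning, 97.5% and 1265 CPM at the read limit of experiment 1, and 80.9% and 1478 CPM with 2 or more reads; G3SEKO shares were 100%, 97.7% and, with no Id2 limit, 52.4%. In experiment 2, WT cells gave 87.3% and 1147 CPM with no thinning, 68.5% and 1447 CPM with 2 or more reads, 73.8% and 1341 CPM at the ln limit and 76.1% with no Id2 limit, and G3SEKO cells 71.3% and 548 CPM, 40.3% and 931 CPM, 46.2% and 809 CPM, and 47.1%.

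Genes called across Gata3 ranks in Zbtb16+ cells numbered 5 by DESeq2 and 7 with no filter. Small changes across Gata3 ranks in Il1rl1+ cells changed sign, at 0.0089 for Il1rl1 and −0.077 for Bcl11b when ranked within groups of like gene number, −0.0093 for Il7r and −0.023 for Bcl11b with 2 equal parts, −0.015 for Il7r and 0.0019 for Il2ra with no Id2 limit, −0.0066 for Il7r without Mki67+ cells, −0.11 for Bcl11b by hashtag, and 0.12 for Zbtb16, −0.0033 for Il7r and −0.084 for Bcl11b at gate limit 2. Counts of genes called differed by over 1.5 times between edgeR and the alternatives: in all kept cells 0 against 992 (DESeq2), 727 (thinned) and 3 (hashtags of experiment 1). Il1rl1- Zbtb16- Icos+ cells gave 0 against 55 (DESeq2), 105 (thinned) and 32 (no filter). Cells with none of the markers gave 5 against 128 (DESeq2), 70 (thinned), 79 (no filter), 2 (gate limit 2) and 0 with no block, no Id2 limit or without marker-carrying cells. The wider set gave 31 against 179 (DESeq2), 235 (thinned), 171 (no filter), 123 (without marker-carrying cells), 20 (2 times the read limit) and 0 with no block, rebuilt hashtags or gate limit 2. The Zbtb16+ gates gave 0 by edgeR and 20 to 24 by DESeq2, with 1 in Zbtb16+ Icos- cells with no filter or thinned and 5 in the joined gates thinned. Differences between gates gave 0 by edgeR and, thinned, 4, 17 and 81 for Il1rl1+, Zbtb16- Icos+ and the wider set, the first also 5 with no filter and 9 without marker-carrying cells. In WT gates against Zbtb16+ Icos- cells the counts were 1, 36 and 396 by edgeR, 798, 1712 and 2240 by DESeq2, 2, 353 and 745 thinned, 1, 4 and 237 with no block and 1, 2 and 99 at gate limit 2, and the first was 0 without marker-carrying cells. Genotype changes with under 5 cells in a sum were not run: all of those in Il1rl1+ cells, gate limit 2 in Zbtb16+ Icos+ cells, and hashtag sums within gates. The difference between Il1rl1+ and Zbtb16+ cells was run with 2 cells in a sum, but not at gate limit 2, where 0 were left.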
